A study of Homo sapiens with 16 samples.

Results

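PAQR7 and its relatives of the progestin and adiponectin receptor (PAQR) family were followed through 5 conditions of OCI-AML3 cells. The genes were taken by symbol: PAQR3, PAQR4, PAQR5, PAQR6, PAQR7, PAQR8, ADIPOR1 and ADIPOR2, which are 8 of the 62700 genes in the table. PAQR7 was chosen by its measured fall when inhibitors were added to a retinoid, so this fall is described without a test, and the question was whether the other 7 genes shared it. The other 7 were selected as family members, by name.

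OCI-AML3 is an established acute myeloid leukemia line. The 16 RNA-seq libraries comprised 4 from untreated cells and 3 each from cells given ATRA, Am80 (AM80 in the labels), ATRA with GSK-LSD1 and MB3, or Am80 with GSK-LSD1 and MB3. ATRA, all-trans retinoic acid, activates all retinoic acid receptors, Am80 (tamibarotene) is selective for RARA, GSK-LSD1 inhibits the demethylase LSD1, and MB3 inhibits the acetyltransferase GCN5. By the study's methods the treated cells were exposed for 3 h, with each retinoid at 0.1 µM and, in the combinations, MB3 at 100 µM beside GSK-LSD1 at 0.1 µM. No group received the inhibitors without a retinoid, so each inhibitor effect below is one beside a retinoid, and the pair of inhibitors cannot be told apart. All libraries are of 1 cell line, and nothing says whether the numbered repeats came from separate cultures, so p-values measure the spread between these libraries, which may be technical.

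PAQR proteins share a bundle of membrane-spanning helices and divide by ligand. PAQR5, PAQR6, PAQR7 and PAQR8 (with PAQR9) are membrane progestin receptors, which bind progesterone at the cell surface and act on G protein and cAMP signalling within minutes, apart from the nuclear receptor PGR. ADIPOR1 and ADIPOR2 bind the fat-derived hormone adiponectin, feed into AMPK and PPARA, and carry a ceramidase activity in their helices. PAQR3 sits in the Golgi, where it holds RAF kinases and the SREBP escort SCAP, PAQR4 is a less studied Golgi member, and MMD and MMD2 are distant relatives first described in monocyte to macrophage differentiation.

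Sequencing gave 11963898 to 33789718 reads per library over the genes of the table, a 2.82-fold range. Values are normalized counts, reads divided by the library's size factor. The leukocyte and myeloid markers PTPRC, SPI1, CD33, ANPEP, MPO, CEBPA and HOXA9 summed to 17404 to 24307 normalized counts per library. All 4 T cell markers (CD3D, CD3E, CD3G, CD2) had at most 3 reads in every library. The 4 B cell markers summed to 28.6 to 62.5 normalized counts, with MS4A1 at 0, and among the epithelial or stromal markers only PECAM1, which leukocytes also carry, was abundant.

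PAQR7 (ENSG00000182749.6), the membrane progestin receptor alpha, lies on the minus strand at chr1:25861210-25871253 of GRCh38, in GENCODE release 29. Its normalized counts in untreated cells were 113, 139, 146 and 155. They were 115, 96.6 and 92.2 with ATRA and 82.6, 77.7 and 96.2 with Am80. With the inhibitors added they were 22.5, 22.8 and 11.4 beside ATRA and 14.3, 12.4 and 19.3 beside Am80. Every library with inhibitors lay below every library without them, while ATRA and untreated libraries overlapped and all Am80 libraries lay below all untreated ones. The libraries with inhibitors held 9 to 23 reads of PAQR7 and the others 81 to 151 reads, so counting error relative to the level is larger in the former.

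PAQR7 averaged 138 ± 18.1 normalized counts in untreated cells (SD, n = 4). Its ATRA mean was 101 ± 11.9 and fell to 18.9 ± 6.51 once inhibitors were present, and its Am80 mean was 85.5 ± 9.59 and fell to 15.3 ± 3.59 (each SD, n = 3). On the log2(normalized count + 1) scale, on which all differences below are given, PAQR7 differed by -2.42 when the inhibitors were added to ATRA, a 5.34-fold lower level. The difference was again -2.42, or 5.36-fold lower, when they were added to Am80. Without ATRA and inhibitors replicate 3, the lowest library, the value beside ATRA was -2.11. Against untreated cells the difference was -0.44 with ATRA and -0.68 with Am80, and -2.86 and -3.11 with the inhibitors.

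The levels of PAQR7 with a retinoid alone enter the falls it was chosen on, so their contrast is also given without a test. Its level with Am80 differed from that with ATRA by -0.24. The falls beside the 2 retinoids, which are the values PAQR7 was chosen on, differed by -0.01, given without a test. In the comparison of Am80 with ATRA, 35 of 14643 genes tested (0.239%) were called at an adjusted p under 0.05, and 2042 had an unadjusted p under 0.05. None of the other 7 receptor genes was among the calls of that comparison by limma, edgeR or DESeq2. In the interaction of retinoid and inhibitors 0.0% of genes were called by limma, with 2211 genes at an unadjusted p under 0.05, and edgeR called 0 and DESeq2 called 24, none of them one of the other 7 receptor genes.

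**Figure D1:**
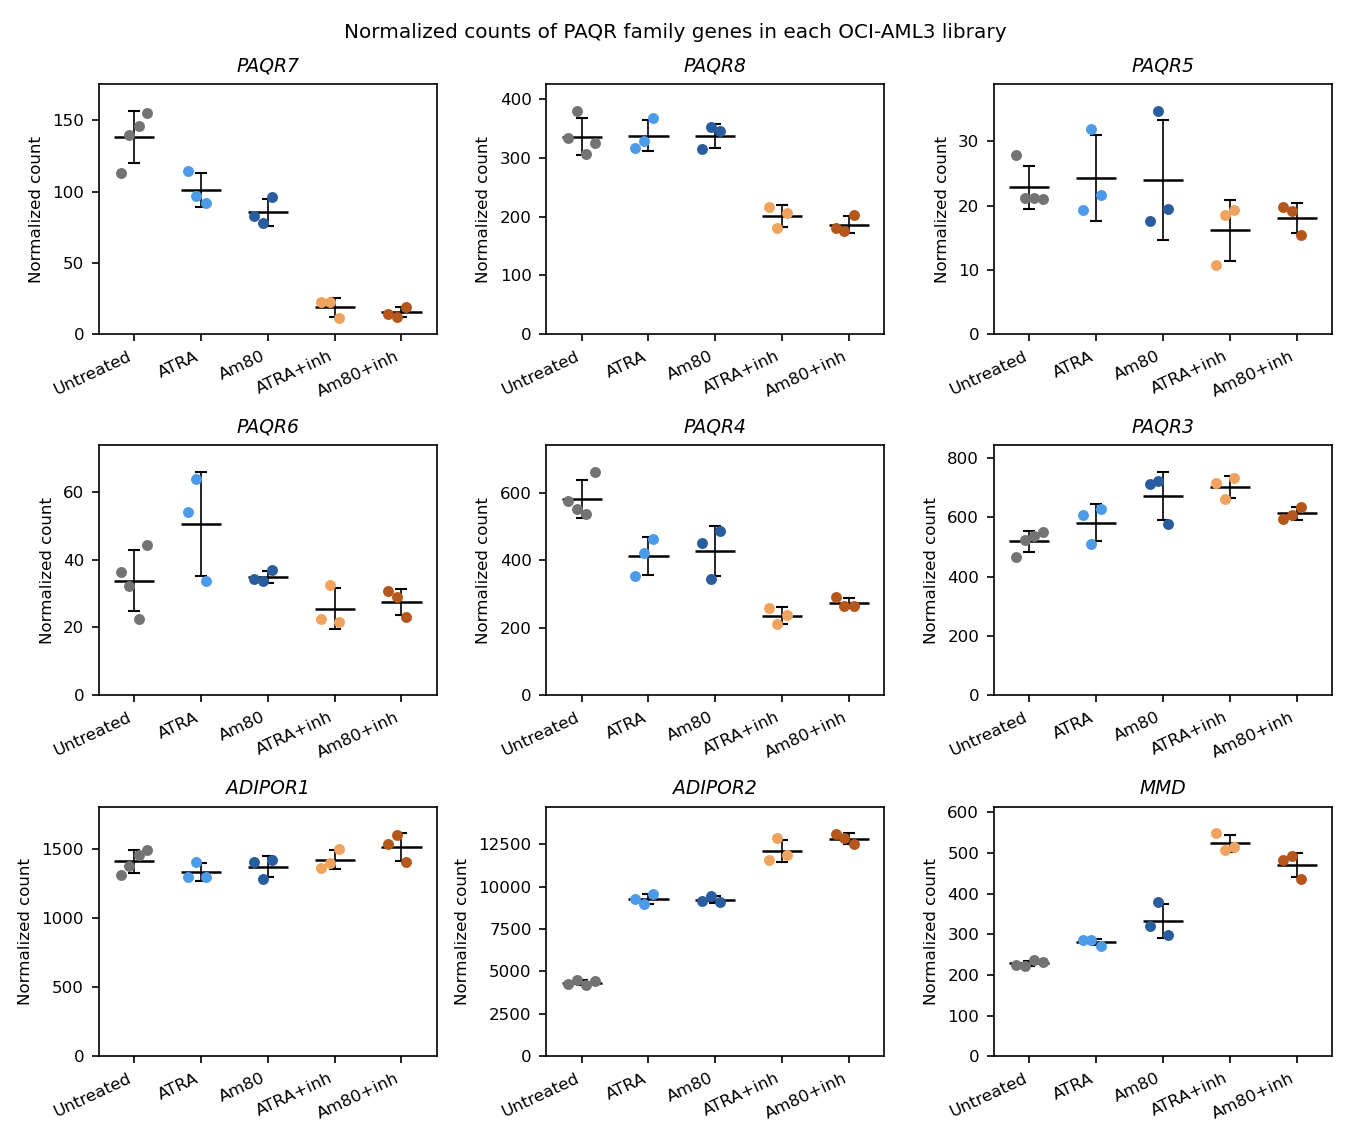
Normalized counts (vertical axes, each starting at 0) of the 8 receptor genes and MMD in each library, by group; points are libraries, horizontal bars group means and whiskers 1 SD (n = 4 untreated, 3 otherwise; inh, GSK-LSD1 and MB3). PAQR7 spans 11.4 to 22.8 in the 6 libraries with inhibitors and 77.7 to 155 in the others, PAQR8 and PAQR4 drop less, and ADIPOR2 and MMD run the other way.

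Adding the inhibitors gave calls in both directions among the other 7 receptor genes, and none for PAQR5 or ADIPOR1. All 8 receptor genes passed the filter on low values, which asked for 10 normalized counts or more on average over the libraries. Beside ATRA, 3 of the 7 fell (PAQR4, PAQR6 and PAQR8), where 24.4% of all genes tested were called lower, and 2 rose (ADIPOR2 and PAQR3), where 24.9% were called higher. Beside Am80, 2 fell (PAQR4 and PAQR8) against 19.5% of all genes, and 1 rose (ADIPOR2) against 19.9%. These counts are of only 7 genes and do not set the family apart from all genes. The median difference of the 7 was -0.57 beside ATRA and -0.33 beside Am80, against -0.02 and -0.01 over all genes tested. Both medians are the values of PAQR5, a gene of few reads that was not called, and calls went in both directions, so they do not show a fall of the family. The differences of the progestin receptors PAQR5, PAQR6 and PAQR8, and of PAQR4, were negative beside both retinoids, and those of ADIPOR1 and ADIPOR2 positive. Of the negative ones only PAQR4 and PAQR8 were called beside both. Every one of these comparisons shares libraries with others, so the counts are not independent of each other.

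Scaling to the total reads of each library instead of size factors lowered the median of all genes by 0.14 beside ATRA and by 0.12 beside Am80, and by 0.15 and 0.18 in the combinations against untreated cells. The share of higher calls among all calls then went from 50.5% to 29.8% beside ATRA and from 50.5% to 29.3% beside Am80. Differences are therefore relative to the typical gene. Under that scaling PAQR3 was no longer called beside ATRA and was called lower beside Am80, and PAQR5 was called lower beside ATRA.

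Among the progestin receptors, PAQR8 (membrane progestin receptor beta, chr6:52361421-52407777, plus strand) fell when the inhibitors were added to either retinoid and gave no call with a retinoid alone. Its normalized counts were 335, 379.6, 306 and 326 in untreated cells, 317, 329.5 and 367 with ATRA and 315, 353 and 346 with Am80. They were 217, 180.4 and 207 with ATRA and inhibitors and 181, 176 and 203 with Am80 and inhibitors. The 6 libraries with inhibitors all lay below the 10 without, and the 3 groups without inhibitors overlapped throughout. Adding the inhibitors lowered PAQR8 by a difference of -0.75 beside ATRA (SE 0.10, adjusted p = 7.39e-06), a 1.68-fold fall, and of -0.85 beside Am80 (SE 0.10, adjusted p = 1.74e-06), a 1.81-fold fall. Neither retinoid gave a call, with differences of 0.01 (intervals -0.19 to 0.21 for ATRA and for Am80).

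PAQR6, the membrane progestin receptor delta, was low and varied more between libraries. Its normalized counts were 36.3, 32.3, 22.4 and 44.3 untreated, 54.0, 63.8 and 33.9 with ATRA and 34.3, 33.7 and 36.9 with Am80. With the inhibitors they were 22.5, 32.6 and 21.6 beside ATRA and 30.7, 28.9 and 23.2 beside Am80. Each inhibitor group lay below its own retinoid group without overlap, but both overlapped the untreated libraries. The difference beside ATRA was -0.93 (SE 0.25, adjusted p = 0.00488) and that beside Am80 -0.34 (interval -0.87 to 0.19, adjusted p = 0.306), and the interaction did not show that these differ (0.59, adjusted p = 0.434). With ATRA alone PAQR6 differed from untreated cells by 0.56 (adjusted p = 0.0957), which became a call when Untreated replicate 4 (0.70, adjusted p = 0.0379) or ATRA replicate 3 (0.82, adjusted p = 0.0238) was left out. With ATRA and inhibitors it differed from untreated cells by -0.38 (adjusted p = 0.182), a call only without Untreated replicate 3 (-0.55, adjusted p = 0.0476).

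PAQR5, the membrane progestin receptor gamma, ranged from 10.7 to 34.7 normalized counts over all 16 libraries, or 11 to 67 reads. Its difference with the inhibitors was -0.57 beside ATRA (interval -1.16 to 0.03, adjusted p = 0.108) and -0.33 beside Am80 (interval -0.92 to 0.27, adjusted p = 0.383). Both intervals hold 0. PAQR9, a progestin receptor outside the 8 genes, was measured at 7.23 to 23.7 normalized counts. Its differences with the inhibitors were -0.65 beside ATRA (adjusted p = 0.115) and -0.23 beside Am80 (adjusted p = 0.621).

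PAQR4 (chr16:2969245-2973489, plus strand) fell at both steps. Untreated libraries held 576, 551, 537 and 660.3 normalized counts, ATRA libraries 353, 422 and 463, and Am80 libraries 449, 344 and 487. With the inhibitors the counts were 259.7, 209.8 and 236 beside ATRA and 289, 264 and 265 beside Am80. The untreated, retinoid and combination libraries formed 3 levels without overlap between successive steps. Against untreated cells the difference was -0.50 with ATRA (SE 0.12, adjusted p = 0.00302) and -0.45 with Am80 (SE 0.12, adjusted p = 0.00539); without Am80 replicate 2 the latter was -0.31 (adjusted p = 0.0540). Adding the inhibitors gave -0.80 beside ATRA (adjusted p = 2.82e-05) and -0.63 beside Am80 (adjusted p = 0.000444), so that the combinations lay 2.46-fold and 2.12-fold below untreated cells.

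The study's methods name a stranded TruSeq kit and the labels an NEBNext DNA library kit on cDNA, and whether reads were counted by strand is not given in the sources used here. Of PAQR4, 41.5% of the exon bases are also exon of PKMYT1 on the opposite strand, a kinase gene of the cell cycle. PKMYT1 differed by -0.67 beside ATRA (adjusted p = 6.81e-05) and by -0.21 beside Am80 (adjusted p = 0.156; -0.36 and adjusted p = 0.00662 without Am80 replicate 2). If strand was not used, reads within the shared bases cannot be told apart, and how such reads were counted is not given. The part of PKMYT1 in the values of PAQR4 was not tested. The antisense gene on PAQR7, AL033528.2, had a mean of 1.27 normalized counts and covers 17.8% of the PAQR7 exon bases.

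PAQR3 (chr4:78887127-78939438, minus strand), the Golgi member, was called higher in 4 of the 6 comparisons with untreated cells or with a retinoid alone. Its normalized counts were 466, 522, 537 and 548 untreated, 607, 509.8 and 628 with ATRA and 712, 723 and 579 with Am80. They were 716, 661 and 731 with ATRA and inhibitors and 595, 608 and 636 with Am80 and inhibitors. All libraries but ATRA replicate 2 lay above every untreated library once treated. The difference from untreated cells was 0.16 with ATRA (adjusted p = 0.205), 0.37 with Am80 (adjusted p = 0.00380), 0.44 with ATRA and inhibitors (adjusted p = 0.000300) and 0.24 with Am80 and inhibitors (adjusted p = 0.0274).

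Adding the inhibitors raised PAQR3 beside ATRA by 0.28 (SE 0.10, adjusted p = 0.0227) and gave -0.12 beside Am80 (interval -0.33 to 0.08, adjusted p = 0.326). The difference of these effects was -0.40 (unadjusted p = 0.00823, adjusted p = 0.226), which did not pass the correction. The call beside ATRA was lost without ATRA replicate 2, without ATRA and inhibitors replicate 1 or without replicate 3 of that group, with values of 0.18 to 0.26 and adjusted p of 0.0633 to 0.152. That of Am80 and inhibitors against untreated cells was lost without Untreated replicate 1 or Am80 and inhibitors replicate 2 or 3 (0.19 to 0.25, adjusted p of 0.0592 to 0.0947), with no filter (adjusted p = 0.0556) and under scaling to total reads (0.06, adjusted p = 0.574). BMP2K on the opposite strand covers 45.5% of the PAQR3 exon bases, and it rose by 0.86 with ATRA and by 0.76 with Am80 (adjusted p = 1.29e-06 and 6.86e-06) and differed by 0.09 and 0.01 when the inhibitors were added; its part in the values of PAQR3 was not tested.

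**Figure D2:**
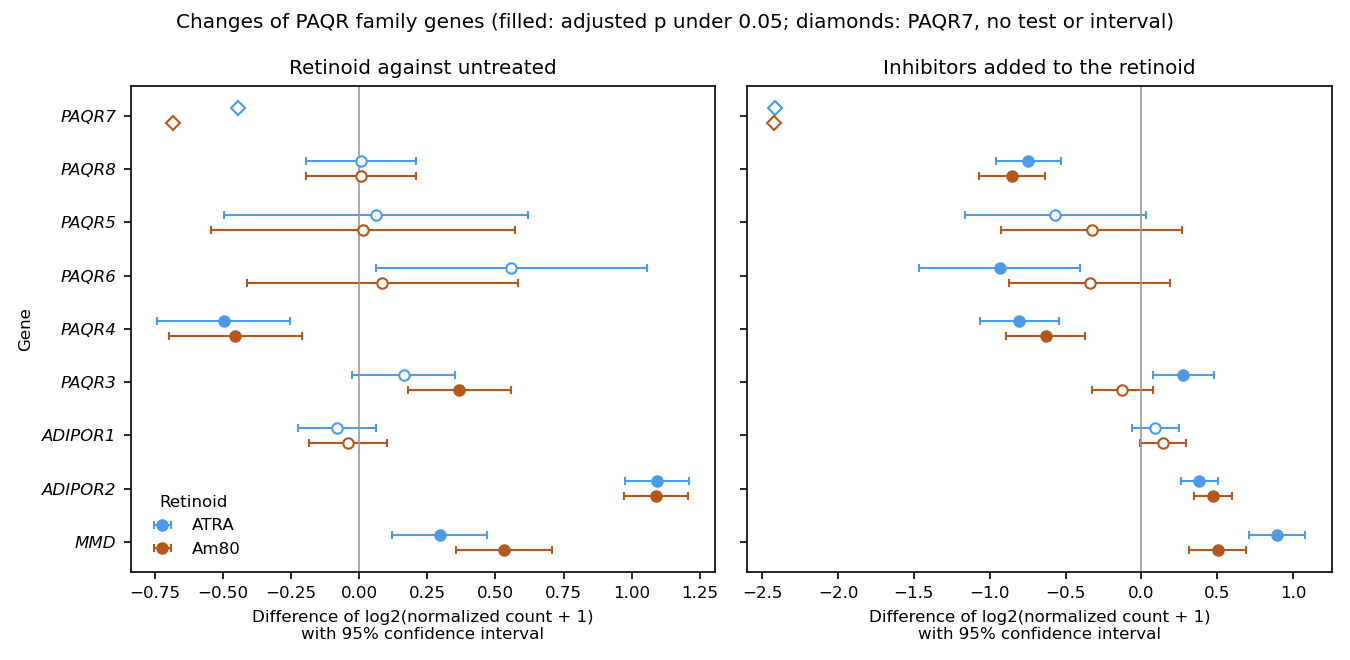
Difference of log2(normalized count + 1) for each gene (rows) with the retinoid against untreated cells (left) and with the inhibitors added to the retinoid (right; the horizontal scales differ); points are limma estimates, whiskers 95% confidence intervals, filled points adjusted p under 0.05 and open diamonds PAQR7, given without test or interval. Beside both retinoids PAQR7 sits at -2.42, PAQR8 and PAQR4 between -0.85 and -0.63, and ADIPOR2 between 0.38 and 0.47.

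Of the adiponectin receptors, ADIPOR2 rose at each step and ADIPOR1 gave no call. ADIPOR2 (chr12:1688574-1788678, plus strand) had 4257, 4467, 4212 and 4424 normalized counts in untreated cells, 9274, 8962 and 9543 with ATRA and 9141, 9449.5 and 9111 with Am80. With the inhibitors it reached 11579, 12842 and 11848 beside ATRA and 13119, 12868 and 12496 beside Am80. The 3 levels did not overlap, and within each level the 2 retinoids did. It rose by 1.09 with either retinoid (SE 0.06, adjusted p = 1.83e-12 for ATRA and 1.99e-12 for Am80), a 2.13-fold rise. The inhibitors added 0.38 beside ATRA (adjusted p = 2.74e-05) and 0.47 beside Am80 (adjusted p = 2.75e-06), which left the combinations 2.78-fold and 2.96-fold above untreated cells.

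ADIPOR1 lay between 1286 and 1604 normalized counts in every library. Its largest difference among the 4 steps was 0.14, on adding the inhibitors to Am80 (interval -0.01 to 0.29, adjusted p = 0.134), and its intervals for ATRA and for Am80 against untreated cells were -0.22 to 0.06 and -0.18 to 0.10. Across those 4 comparisons no interval of ADIPOR1 reached beyond 0.29 on the log2 scale in either direction.

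With retinoid alone, 1 of the 7 receptor genes other than PAQR7 rose with ATRA (ADIPOR2; 12.5% of all genes tested rose) and 1 fell (PAQR4; 12.1% fell). With Am80, 2 rose (ADIPOR2 and PAQR3; 15.4% of all genes) and 1 fell (PAQR4; 13.4%). The combinations against untreated cells gave the same 2 rises, ADIPOR2 and PAQR3, and the same 2 falls, PAQR4 and PAQR8, with either retinoid. Over all genes, 30.2% were called higher and 30.0% lower with ATRA and inhibitors, and 28.0% higher and 26.6% lower with Am80 and inhibitors. These comparisons share the untreated libraries.

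Outside the 8 genes, the family includes MMD, MMD2 and PAQR9. MMD (chr17:55392613-55421992, minus strand) had 225, 223, 237 and 232 normalized counts untreated, 285, 286 and 272 with ATRA, 319, 379 and 299 with Am80, 549, 509 and 514 with ATRA and inhibitors and 482, 493 and 436 with Am80 and inhibitors. No library of a later step overlapped an earlier one. It rose by 0.30 with ATRA (adjusted p = 0.0128; 0.28 and adjusted p = 0.0515 without ATRA replicate 1) and by 0.53 with Am80 (adjusted p = 5.23e-05), and by a further 0.90 and 0.51 on adding the inhibitors (adjusted p = 1.52e-07 and 0.000151). The difference between these 2 inhibitor effects was -0.39 (unadjusted p = 0.00609, adjusted p = 0.226). MMD2 had 1 read, in Untreated replicate 4, and none elsewhere. PAQR9 was called lower against untreated cells with ATRA and inhibitors (-0.76, adjusted p = 0.0406), a call lost without any of the 3 libraries of that group or Untreated replicate 2, 3 or 4 (adjusted p of 0.0502 to 0.134). It was also lost with only the groups compared (adjusted p = 0.0520), by DESeq2 (adjusted p = 0.0814) and with no filter (adjusted p = 0.131). With Am80 and inhibitors it was not called (-0.73, adjusted p = 0.0532) and became a call without Untreated replicate 1, ATRA replicate 2, or Am80 replicate 1 or 3 (adjusted p of 0.0280 to 0.0498).

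Levels were compared between genes as normalized counts per kb of annotated exon. In untreated cells ADIPOR2 led at 738 ± 21.2 per kb (SD, n = 4), followed by ADIPOR1 at 443 ± 25.5 and PAQR4 at 196 ± 18.6. MMD (70.0 ± 1.98) and PAQR8 (66.6 ± 6.13) overlapped, as did PAQR7 (42.0 ± 5.49) and PAQR3 (41.8 ± 2.95). PAQR6 followed at 13.9 ± 3.73, and PAQR9 (3.90 ± 1.27) and PAQR5 (3.67 ± 0.541) overlapped at the bottom, above MMD2. With ATRA and inhibitors PAQR7 stood at 5.73 ± 1.97 and with Am80 and inhibitors at 4.64 ± 1.09 (SD, n = 3 each), below PAQR6 without overlap and above PAQR5. Among the progestin receptors PAQR8 was the most abundant per length in every group, at 39.8 ± 3.71 and 36.9 ± 2.90 in the combinations. Exon lengths come from the annotation, not from the transcripts in these cells, so neighbours in this order may swap with another gene model.

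**Figure D3:**
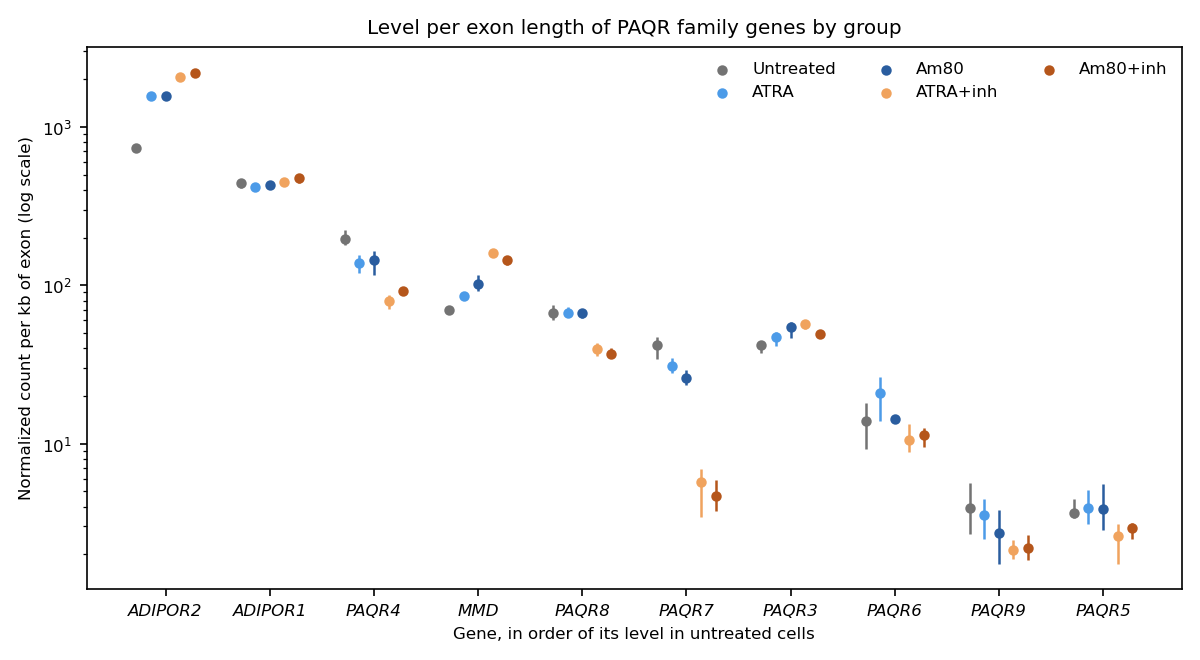
Normalized count per kb of exon (vertical axis, log scale) for 10 family genes in order of their level in untreated cells, by group; points are group means and vertical lines run from the lowest to the highest library. PAQR7 moves from 42.0 per kb untreated to 5.73 and 4.64 with the inhibitors, while ADIPOR1 stays between 419 and 475.

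The pattern of PAQR7 over the 16 libraries was compared with that of every gene averaging 50 normalized counts or more. The 5 genes most like it by Pearson correlation among 11300 were HINFP (r = 0.978), AGFG2 (0.977), NUDT16 (0.974), RAD51D (0.974) and MAP3K21 (0.973). HINFP, a zinc finger factor of histone H4 genes, went from 305 ± 7.19 normalized counts untreated to 201 ± 13.6 and 192 ± 15.5 in the combinations. MAP3K21, a kinase, went from 569 ± 43.1 to 209 ± 16.9 and 184 ± 7.95, and RAD51D, a DNA repair gene, from 843 ± 47.7 to 547 ± 9.73 and 534 ± 15.1. By Spearman correlation the 5 leading genes were others, CDK5R1, RNF207, HILPDA, PARP12 and ZNF786. Within the family, Pearson's r with PAQR7 was 0.93 for PAQR8 and 0.90 for PAQR4, ranks 220 and 545 among the 11300, and -0.94 for MMD and -0.80 for ADIPOR2. By Spearman correlation PAQR8 (0.64) was less like PAQR7 than PAQR4 (0.86), and MMD and ADIPOR2 were at -0.89. These values are descriptions over libraries that fall into 5 groups and share the size-factor scaling. They also include the fall with inhibitors that PAQR7 was chosen on.

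Genes near PAQR7 did not share a direction. Of the 7 protein-coding genes annotated within 100 kb of it, 5 passed the filter. AUNIP, at a distance of 1.75 kb, differed by 0.16 and -0.15 when the inhibitors were added to ATRA and to Am80 (adjusted p = 0.303 and 0.358). STMN1, at 12.9 kb, which encodes the microtubule regulator stathmin, rose beside ATRA by 0.36 (adjusted p = 0.000396) and differed by 0.14 beside Am80 (adjusted p = 0.130). PAFAH2, at 88.5 kb, a phospholipase gene, rose by 0.62 and 0.73 (adjusted p = 7.48e-07 and 8.08e-08). MTFR1L (-0.01 and -0.15) and SELENON (0.03 and 0.15) gave no call, MAN1C1 was under the filter and AL020996.2 had no read. No neighbour that passed the filter was called lower in these 2 comparisons, except MTFR1L beside Am80 under scaling to total reads (-0.28, adjusted p = 0.0110).

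Other genes of the receptors' pathways were counted from 5 lists, and each count is set against the share of all genes called in that comparison. The progesterone-binding list (PGR, PGRMC1, PGRMC2, NENF, CYB5D2, SERBP1 and NR3C1) had 6 of 7 genes above the filter, and PGR, the nuclear progesterone receptor, was not among them. Beside ATRA 2 of the 6 rose and 1 fell, and beside Am80 1 rose and 2 fell, with medians of 0.17 and -0.02 against -0.02 and -0.01 over all genes. Of all genes tested, 24.9% rose and 24.4% fell beside ATRA and 19.9% rose and 19.5% fell beside Am80, and the counts of this list were near those shares. NR3C1, the glucocorticoid receptor, rose by 0.48 beside ATRA (adjusted p = 5.26e-05) and by 0.24 beside Am80 (adjusted p = 0.0199). CYB5D2, a heme-binding relative of the PGRMC proteins, fell by 0.47 on the log2 scale beside ATRA (adjusted p = 0.00323) and by 0.31 beside Am80 (adjusted p = 0.0489), a call lost on leaving out any of 13 of the 16 libraries. NENF, a secreted relative, differed by -0.25 beside ATRA (adjusted p = 0.0773) and fell by 0.31 beside Am80 (adjusted p = 0.0378). Beside ATRA it was called with only the groups compared (adjusted p = 0.00673), under scaling to total reads (-0.40, adjusted p = 0.00428) and without Untreated replicate 4 (adjusted p = 0.0234). Beside Am80 its call was lost with no filter (adjusted p = 0.0742) and without any Am80 library or Am80 and inhibitors replicate 2 or 3 (adjusted p of 0.0509 to 0.224). The calls of this list beside Am80 were not firm: 0 of 6 were left without Am80 replicate 1, Am80 replicate 3, or Am80 and inhibitors replicate 2 or 3. Beside ATRA, 5 were called without Untreated replicate 4.

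The G protein and cAMP list had 16 of 18 genes above the filter. Beside ATRA 5 rose and 3 fell, and beside Am80 2 rose and 3 fell, with medians of 0.13 and 0.08. Against shares of 24.9% higher and 24.4% lower over all genes beside ATRA, and 19.9% and 19.5% beside Am80, these counts were near the background. The genes called lower were adenylyl cyclases, which make cAMP: ADCY6 (-0.95 and -0.49, adjusted p = 5.65e-07 and 0.000982), ADCY1 (-0.74 and -1.05, adjusted p = 0.00745 and 0.000570) and ADCY3 (-0.32 and -0.25, adjusted p = 0.00205 and 0.0140). Another cyclase, ADCY7, named after its values were seen, was called higher beside Am80, and ADCY4 and ADCY9 were called in neither comparison. The ADCY3 call beside Am80 was lost without Am80 replicate 1 or 3 (adjusted p of 0.0641 to 0.0706). ADCY6 had 198 ± 14.4 normalized counts untreated, 319 ± 22.6 with ATRA and 165 ± 20.6 with ATRA and inhibitors. GNAS, the stimulatory G protein subunit, rose by 0.20 beside each retinoid (adjusted p = 0.0116 and 0.0156), but not under scaling to total reads (0.05 and 0.07, adjusted p = 0.455 and 0.320), nor without ATRA and inhibitors replicate 3 (adjusted p = 0.0696) beside ATRA or without Am80 replicate 2 or Am80 and inhibitors replicate 2 beside Am80 (adjusted p of 0.0541 to 0.0624).

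On the adiponectin side the list of AMPK and PPARA genes had 11 of 16 genes above the filter, and ADIPOQ, which encodes adiponectin, was under it. Beside ATRA 7 of the 11 rose and 2 fell, and beside Am80 6 rose and 2 fell, with medians of 0.28 and 0.31. The background in the same comparisons was 24.9% called upward and 24.4% downward with ATRA present, and 19.9% and 19.5% with Am80. SIRT1, a deacetylase linked to AMPK, rose by 0.71 and 0.52 (adjusted p = 1.69e-07 and 8.63e-06), from 786.5 ± 54.6 to 1287 ± 66.2 normalized counts beside ATRA. PPARA, a fatty acid receptor downstream of ADIPOR2, rose by 0.61 and 0.76 (adjusted p = 7.04e-05 and 7.47e-06). The adaptor gene APPL2 rose by 0.39 and 0.41 (adjusted p = 0.00279 and 0.00243; 0.24 and adjusted p = 0.0616 beside ATRA under scaling to total reads). CAMKK2, a kinase upstream of AMPK, fell (-0.32 and -0.25, adjusted p = 0.000716 and 0.00804).

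The ceramide and sphingosine list, the substrates and products of the ceramidase activity, had 14 of 19 genes above the filter. Beside ATRA 9 rose and 2 fell, and beside Am80 8 rose and 1 fell, with medians of 0.34 and 0.31. Of all genes tested, those called upward and downward made up 24.9% and 24.4% beside ATRA, and 19.9% and 19.5% beside Am80. S1PR3, a receptor for sphingosine 1-phosphate, rose by 2.48 and 2.58 (adjusted p = 5.71e-13 and 2.89e-13), from 575 ± 43.4 to 3249 ± 633 normalized counts beside ATRA. SPHK1, the kinase that makes this ligand, fell (-2.51 and -1.68, adjusted p = 8.80e-08 and 1.41e-05), from 54.0 ± 4.35 to 8.94 ± 3.15 beside ATRA. ACER2, a Golgi ceramidase, rose by 1.13 and 1.5 (adjusted p = 4.90e-07 and 1.08e-08), and SGPL1, which degrades the ligand, by 0.68 and 0.65 (adjusted p = 1.99e-06 and 4.10e-06).

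Of the 14 RAF, ERK and SREBP genes, the partners of PAQR3, 7 rose and 3 fell beside ATRA, and 6 rose and none fell beside Am80. The shares called over all genes beside ATRA were 24.9% upward and 24.4% downward, the latter close to that of this list, and beside Am80 they were 19.9% and 19.5%. The medians were 0.14 and 0.11, of the size of the shift between the scalings given above. Only 6 were called beside ATRA without ATRA replicate 2 or without ATRA and inhibitors replicate 2. INSIG1, which retains SREBP precursors, rose by 0.55 and 0.59 (adjusted p = 8.70e-06 and 4.67e-06) and BRAF by 0.57 and 0.42 (adjusted p = 6.07e-05 and 0.00143).

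The same lists were counted with retinoid alone. With ATRA, where 12.5% of all genes were higher and 12.1% lower, 1 rose and 1 fell of the 6 progesterone-binding genes above the filter, 4 and 1 of 16 in the G protein list, 4 and 0 of 11 in the adiponectin list, 1 and 1 of 14 in the ceramide list and 3 and 0 of 14 in the RAF and SREBP list. For Am80, with 15.4% of all genes called upward and 13.4% downward, these counts were 1 and 0, 5 and 1, 4 and 0, 1 and 2, and 3 and 1. Several of these counts changed by over 1.5 times when 1 library was left out: in the ceramide list with ATRA to 1 without Untreated replicate 1, 2 or 3 or any ATRA library, and with Am80 to 5 without Untreated replicate 3, and in the progesterone-binding list with ATRA to 1 without ATRA replicate 2 and with Am80 to 2 without Untreated replicate 4.

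**Figure D4:**
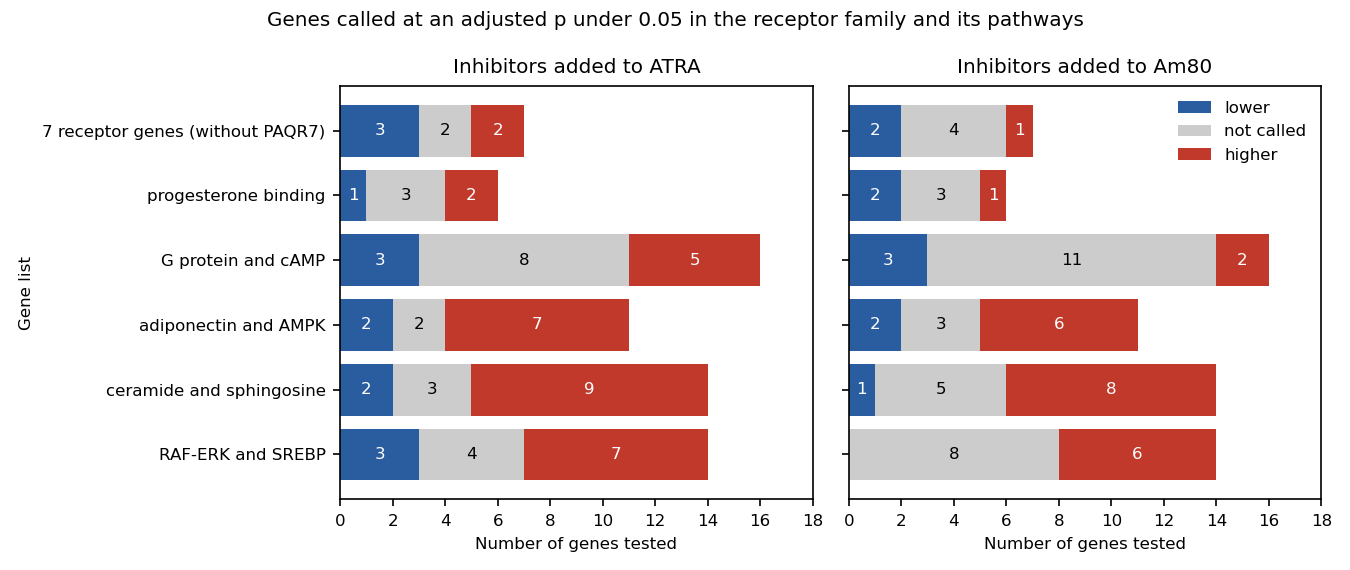
Number of genes tested (horizontal axis) in the 7 receptor genes other than PAQR7 and in 5 pathway lists (rows) that were called lower, not called or called higher at an adjusted p under 0.05, when the inhibitors were added to ATRA (left) or to Am80 (right). In the ceramide and sphingosine list 9 and 8 of 14 genes are higher, while the receptor genes divide into 3 lower and 2 higher beside ATRA and 2 lower and 1 higher beside Am80.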

How the data were processed

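RNA-seq of OCI-AML3 cells was analysed in 16 libraries grouped by the labels. The signal values are normalized counts: the authors counted reads per gene (STAR and featureCounts per the labels, run on Galaxy by the study's methods), divided them by DESeq2 size factors and deposited the table. Genome build and strand setting are not given in the sources used here. Gene symbols were found for all 62700 identifiers, and positions and exon lengths were taken from GENCODE release 29 of GRCh38 by stable identifier. Multiplying each library by its size factor gave whole reads for 100% of values (tolerance 0.001), 11963898 to 33789718 per library. Depth limits the precision of low genes, and read counts cover counting error only.

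The family, the gene lists and the comparisons were chosen with earlier results of these data known. The 14643 genes averaging 10 normalized counts or more were fitted as log2(normalized count + 1) with limma 3.58.1 (mean-variance trend, 1 coefficient per group, R 4.3.3), with Benjamini-Hochberg adjustment over all of them in each comparison and a call at an adjusted p under 0.05. PAQR7 is given without a test in every comparison. The alternatives were pseudocounts of 0.5 and 5, no filter, a mean of at least 50, scaling to total reads, only the groups compared, edgeR 4.0.16 (quasi-likelihood, TMM) and DESeq2 1.42.0 on the recovered reads, a replicate block, each library left out, and a change over 1.5-fold. On the recovered reads edgeR called 7301 genes and DESeq2 7044 when the inhibitors were added to ATRA, and 5897 and 5596 beside Am80 (limma 7226 and 5778). The methods were also run on simulated counts with the same dispersion for every gene and few changed genes. These data differ in both, so that run does not bear on the calls given here. Named were the 8 genes, PAQR9, MMD and MMD2, up to 4 genes per list with the smallest larger p over the 2 inhibitor comparisons, the 5 genes most like PAQR7 and its neighbours within 100 kb. Some genes that these rules cover are not reported here. Figures were drawn with matplotlib 3.10.9 in Python 3.11.15.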

Additional observations from a re-analysis of the deposited data

Results flagged for a closer look

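PAQR5 in Untreated replicate 1 stood at 27.9 normalized counts, apart from the other 3 untreated libraries at 21.1 to 21.2, a gap beyond Dixon's 95% critical value for 4 samples. Among the 10 family genes checked in the untreated group this was the only such value. Chance alone gives about 1 in 20 for a single gene, and so more often over 10 genes.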

How the results depend on the processing

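Precision was limited for PAQR5, PAQR6, PAQR9 and, with the inhibitors, PAQR7 and SPHK1, which rest on few reads, and by 3 or 4 libraries per group of 1 cell line. A log2 difference was counted as kept if its direction and side of the threshold stayed the same. PAQR7 against untreated cells or with the inhibitors added had no threshold. There it had to keep its direction and move by less than its residual SD. Over the family genes, 728 of 770 log2 differences under other settings were kept, 18 lost a call, 7 gained one and 17 changed sign. With 1 library left out these numbers were 1217 of 1280, 14, 7 and 40, and 2 untested values of PAQR7 moved by more than their spread. For the other named genes they were 531 of 578, 36, 7 and 4 under other settings and 883 of 928, 36, 4 and 5 with 1 library left out. Many of these values could not change direction. Leaving out a library of a group outside the comparison changes the p-value but not the log2 difference. No filter, a mean of at least 50, only the groups compared and the limit of 1.5-fold also reuse the main log2 differences. The totals therefore say little about the stability of direction. The alternatives for pathway lists, PAQR9, MMD, neighbours and overlapping genes were chosen after seeing the data. The cause of the changes below was not tested, except that a fold limit keeps fewer genes by construction.

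With a change over 1.5-fold also required, the receptor genes called other than PAQR7 went from 2 to 1 with ATRA, from 3 to 1 with Am80 and from 5 to 3 with the inhibitors added to ATRA. The other 77 of 80 such counts, and all 128 with 1 library left out, stayed within 1.5 times. The same limit took the pathway lists, beside ATRA and beside Am80, to 0 and 0 (progesterone binding), 2 and 1 (G protein), 3 and 2 (adiponectin), 6 and 4 (ceramide) and 0 and 1 (RAF and SREBP).

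Scaling to total reads changed the sign of PAQR4 in Am80 against ATRA (-0.016), PAQR5 with Am80 (-0.044), the PAQR7 interaction (0.018), PAQR8 with Am80 (-0.052) and in Am80 against ATRA (-0.059), and ADIPOR1 with the inhibitors added to ATRA (-0.053), in the ATRA and Am80 combinations against untreated cells (-0.13 and -0.083) and in Am80 against ATRA (-0.019). It did so also for SELENON (-0.12) and BMP2K (-0.057) beside ATRA and BMP2K beside Am80 (-0.11). A pseudocount of 5 turned the PAQR7 interaction to 0.023. For Am80 against ATRA, edgeR gave PAQR5 0.045 and ADIPOR2 0.0062, and DESeq2 gave PAQR5 0.0084 and PAQR8 -0.0089. BMP2K beside Am80 was -0.018 by edgeR. None of these values was called in the main analysis. Under total-read scaling the share of higher calls was 39.0% with Am80 (53.5% before), 35% in the ATRA combination (50.1%) and 30.4% in the Am80 combination (51.3%), both against untreated cells. In Am80 against ATRA, 35 genes became 88 by edgeR, 291 by DESeq2, 18 by total reads, 7 over 1.5-fold, and 0 without a filter or with only the groups compared.

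Deviations from the group means were correlated over 30 pairs of same-numbered libraries from different groups. The correlations ran from -0.11 to 0.187, with 4 over 0.1. Libraries with different numbers were not compared in this way, so whether replicate numbers pair the samples was not tested. With a replicate block PAQR5 with Am80 was -0.020 and PAQR8 was -0.0066 with ATRA and -0.0063 with Am80, PAQR6 was called with ATRA (0.70, adjusted p = 0.0214; Untreated replicate 4, the only library of its number, does not enter the estimate), and 402 genes were called in Am80 against ATRA. With the block PAQR9 was no longer called with ATRA and inhibitors against untreated cells (-0.77, adjusted p = 0.0681), NENF was called beside ATRA (adjusted p = 0.0183), and the progesterone-binding list had 5 calls beside ATRA and 2 with Am80. No other call of a named gene changed with the block.

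Leaving out 1 library gave these ranges where a sign changed. In Am80 against ATRA, PAQR4 ran from -0.066 to 0.19, PAQR5 from -0.34 to 0.16, PAQR8 from -0.044 to 0.062 and ADIPOR2 from -0.027 to 0.018. With ATRA, PAQR5 ran from -0.14 to 0.20, PAQR8 from -0.054 to 0.067 and PAQR9 from -0.29 to 0.11. With Am80, PAQR5 ran from -0.28 to 0.19, PAQR6 from -0.093 to 0.22, PAQR8 from -0.036 to 0.067 and ADIPOR1 from -0.073 to 0.0074. The interaction ran from -0.015 to 0.53 for PAQR5 and from -0.32 to 0.16 for PAQR7. ADIPOR1 with ATRA and inhibitors ran from -0.026 to 0.042. PAQR9 beside Am80 ran from -0.49 to 0.027, BMP2K there from -0.070 to 0.098, and MTFR1L beside ATRA from -0.099 to 0.039.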
